A study of Mus musculus with 2 samples.

Results

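The immunoglobulin constant region genes and the joining chain gene were followed in single-cell RNA-Seq (scRNA-Seq) of 2 orthotopic mouse pancreatic tumors, as 9 genes of the 32285 in the count table. They were the heavy chain genes Ighm, Ighd, Ighg1, Ighg2b, Ighg2c, Ighg3 and Igha, the kappa light chain gene Igkc, and Jchain. The genes were taken by symbol, and their unique molecular identifiers (UMIs, 1 per captured RNA molecule) were counted in B cells, in plasma cells and, as background, in every other cell class of each library. B cells were cells with at least 4 UMIs of Cd79a, Ms4a1 and Cd79b together, 3 surface genes of B cells. Plasma cells were cells with at least 10 Jchain UMIs that also made up at least 0.1% of the cell's UMIs.

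KPC cells, a line of mouse pancreatic cancer cells, had been injected into the mouse pancreas. One tumor came from KPC-shV cells, which carry the control vector, and the other from KPC-shZEB1 cells, which carry a hairpin against ZEB1, a transcriptional repressor of epithelial genes. The hairpin was in the injected cells, so every B cell described here came from the host. The study describes gemcitabine treatment of these mice, which the sample labels do not mention, and the labels give no strain, age or sex. There was 1 tumor and 1 library per group, so no test between the groups was possible. Each ratio below is the value in the library labeled KPC-shZEB1 over that in the library labeled KPC-shV. Its 95% interval covers counting error only, not the spread between mice.

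After filtering, 11451 cells with a median of 3726 UMIs were kept from the library labeled KPC-shV, and 12147 cells with a median of 4260 UMIs from the library labeled KPC-shZEB1. Zeb1 stood at 131.7 UMIs per 1000000 UMIs of the class (CPM) in the tumor-like cells of the library labeled KPC-shV and at 175 CPM in those labeled KPC-shZEB1, a ratio of 1.33 (1.27–1.39). Its RNA was thus not lower in this class under the knockdown label, and directions below are given by label. The make-up of the class differed between the libraries. It included a cluster marked by Ralyl, of 10 cells labeled KPC-shV and 235 labeled KPC-shZEB1. An unnamed cluster marked by Prg4 and Grem1, of 503 and 190 cells, was not part of it. The libraries shared 46 barcodes, 37 of them kept in both, and 0 of these were B cells in both libraries. Granulocyte-like cells made up 59.9% of the cells labeled KPC-shV and 35.6% of those labeled KPC-shZEB1.

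An antibody pairs heavy chains with kappa or lambda light chains. A naive B cell transcribes Ighm and Ighd from the same rearranged locus as 1 long RNA, and splicing decides whether IgM or IgD is made. After activation, class switch recombination deletes Ighm and Ighd and joins the variable region to a downstream gene of the IgG, IgE or IgA classes. Plasma cells, the end stage, secrete antibody, and the joining chain encoded by Jchain links IgM and IgA into polymers.

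In the GENCODE annotation of GRCm38, the mm10 assembly, the heavy chain constant genes lay on the minus strand of chromosome 12 in the order in which switching reaches them. Ighm (ENSMUSG00000076617) occupied 113418558 to 113422730, and Ighd (ENSMUSG00000104213) 113406604 to 113416324. Ighg3 followed at 113356224 to 113361232, Ighg1 at 113325240 to 113330523, Ighg2b at 113302965 to 113307933, and Ighg2c at 113285325 to 113288932. Igha, the last, lay at 113254830 to 113260236. Igkc lay on the plus strand of chromosome 6 at 70726435 to 70726966, and Jchain on the minus strand of chromosome 5 at 88519809 to 88527891.

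Some sequence features of these genes bear on the values. The IgG genes are close relatives, 66.6% to 75.9% identical to each other over their aligned transcripts, and differ most in the hinge, the flexible link that carries the cysteines that bridge paired heavy chains. Their hinge exons from the GENCODE transcripts are printed 5′ to 3′ to show how far the IgG genes differ, with in-frame cysteine codons in capitals. They span chr12:113360529-113360576 for Ighg3, chr12:113329844-113329882 for Ighg1, chr12:113307261-113307326 for Ighg2b and chr12:113288263-113288325 for Ighg2c, each exon 2 on the minus strand.
Ighg3 hinge: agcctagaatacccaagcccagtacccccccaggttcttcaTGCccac
Ighg1 hinge: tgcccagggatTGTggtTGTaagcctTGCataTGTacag
Ighg2b hinge: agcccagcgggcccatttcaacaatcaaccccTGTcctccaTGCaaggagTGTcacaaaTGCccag
Ighg2c hinge: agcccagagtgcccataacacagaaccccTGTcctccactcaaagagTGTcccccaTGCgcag

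The hinges held 1 cysteine codon in Ighg3, 4 in Ighg1, 4 in Ighg2b and 3 in Ighg2c. Nearer the 3′ ends that this assay reads, no window of 90 bases in the last 400 bases was shared between any of the constant genes. Reads that match such a window in full can be assigned to 1 gene. The lambda genes Iglc2 and Iglc3 were nonetheless 94.7% identical, and the split of UMIs between them is uncertain.

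A further feature is the tail of the secreted heavy chain. Only Ighm and Igha carry a tail whose last codon but 1 encodes a cysteine to which the joining chain can attach. Both are printed 5′ to 3′ with that codon in capitals, at chr12:113420870-113420923 (Ighm, exon 4) and chr12:113258771-113258824 (Igha, exon 3), on the minus strand.
Ighm tail: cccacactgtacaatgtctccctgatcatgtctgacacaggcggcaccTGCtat
Igha tail: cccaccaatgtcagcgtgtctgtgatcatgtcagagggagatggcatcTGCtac

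The counts are per gene, so transcripts with the secreted tail and those with the membrane exons were not separated.

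Ighm, Ighd and Igkc were concentrated in B cells, whereas the switched heavy chains and Jchain were rare in B cells. Most Ighg1 and Jchain UMIs of the library labeled KPC-shZEB1 lay in 2 plasma cells, which held 0 UMIs of Ighg2b, Ighg2c, Ighg3 and Igha. Jchain defined the plasma cell gate, so its high level in these cells is no finding. B cells numbered 263 in the library labeled KPC-shV, 2.30% of its cells (2.03–2.59), and 1031 in the other, 8.49% (8.0–9.0), a ratio of 3.70 (3.22–4.25). Among cells other than granulocyte-like cells, the shares were 5.73% and 13.2%, a ratio of 2.30 (2.00–2.64). The label of B cell held up on genes that the gate did not use. Ebf1 and Pax5, B lineage transcription factors, were detected in 100% and 90.1% of the B cells labeled KPC-shV and in 99.7% and 88.8% of those labeled KPC-shZEB1. Outside the B-like cluster lay 20 of the 263 gated cells and 59 of the 1031. Conversely, 47 and 255 cells of the B-like cluster fell below the gate, and they held these genes at higher levels than the gated B cells, with Ighm at 1439.5 and 879 CPM, Ighd at 405 and 569 CPM and Igkc at 2421 and 2306 CPM.

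**Figure D1:**
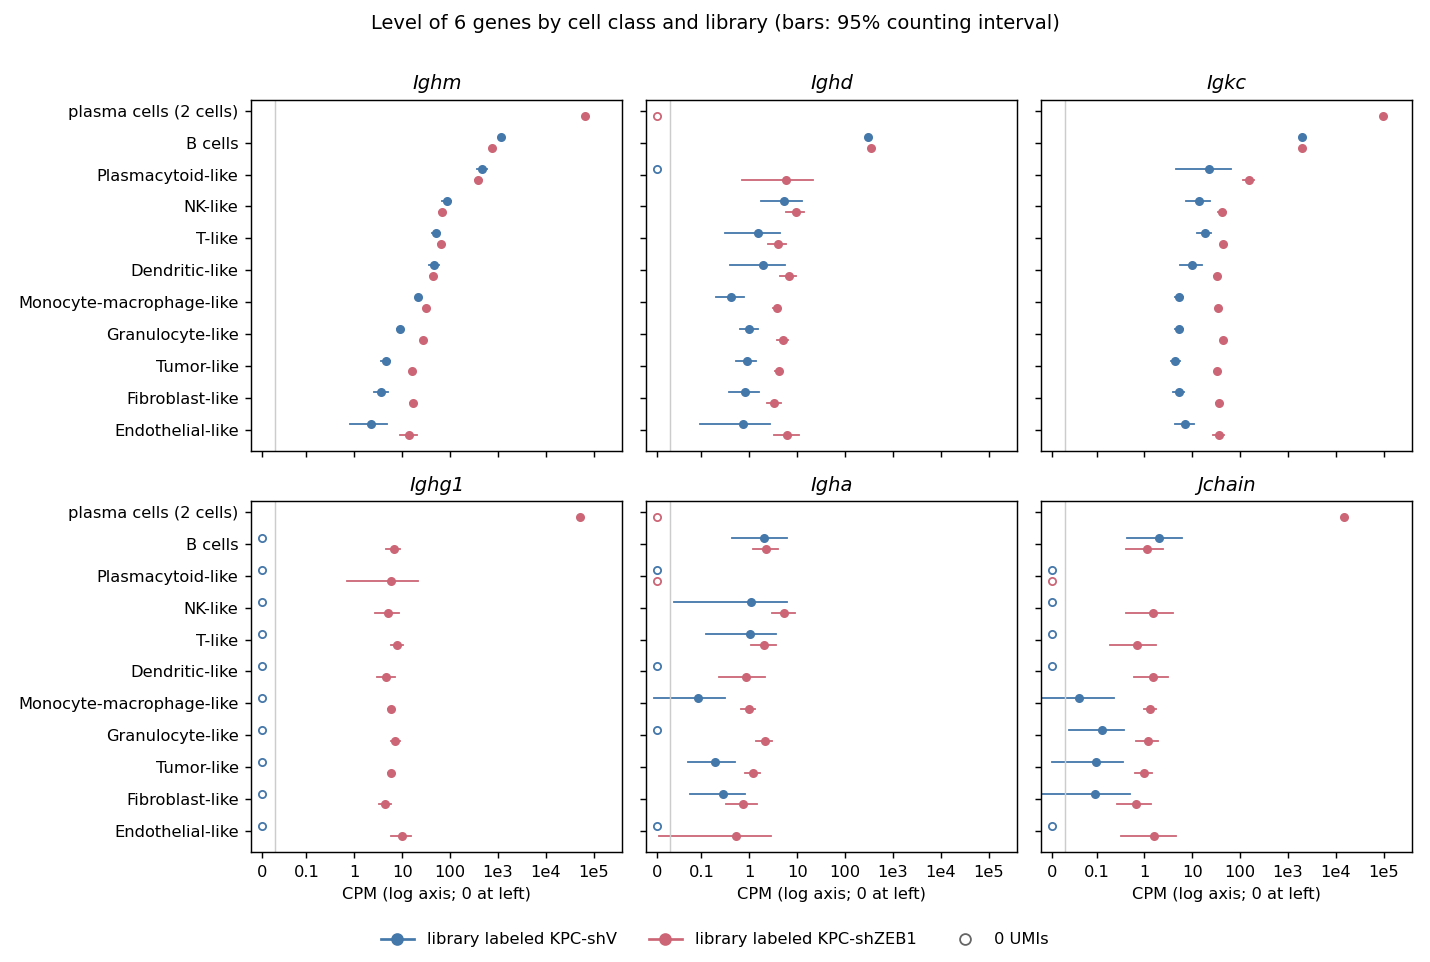
Level in CPM (log axis, with 0 set apart at the left) of 6 of the genes by cell class, in blue for the library labeled KPC-shV and in red for the library labeled KPC-shZEB1, with bars for 95% counting intervals and open circles for 0 UMIs. Of the classes plotted, and apart from the 2 plasma cells, Ighm, Ighd and Igkc stood highest in B cells, whereas Ighg1 in B cells of the library labeled KPC-shZEB1, at 6.63 CPM, lay among its other classes.

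Ighm, the constant gene of IgM, gave 1678 UMIs in the B cells labeled KPC-shV, which is 1155 CPM (1100.1–1211). In the B cells labeled KPC-shZEB1 it gave 3905 UMIs, 739 CPM (716–763), a ratio of 0.640 (0.605–0.678). Ighm was the 1 abundant member that was clearly lower in B cells of the library labeled KPC-shZEB1. The median B cell held 6 Ighm UMIs under the label KPC-shV and 3 under the label KPC-shZEB1, with the middle 50% of cells at 4 to 8 and at 2 to 5. At least 1 Ighm UMI was found in 98.1% and 94.6% of B cells, against 2.70% and 7.98% of granulocyte-like cells, which should lack the gene. Median depths were 3960 and 3585 UMIs in B cells and 3148 and 2910 in granulocyte-like cells. Thinned to 1000 UMIs per cell, the shares of B cells with Ighm were 73.4% and 61.3%, so the difference kept its direction at equal depth.

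Ighd, the constant gene of IgD, stood at 430 UMIs or 296 CPM (269–325) in the B cells labeled KPC-shV and at 1821 UMIs or 345 CPM (329–361) in those labeled KPC-shZEB1. The ratio was 1.17 (1.05–1.30), opposite in direction to that of Ighm. The median was 1 UMI per B cell in both libraries, and the highest single B cell held 8 and 10. A UMI of Ighd was found in 73.8% and 75.3% of B cells and in 0.306% and 1.55% of granulocyte-like cells, at the median depths given above.

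Igkc, the only constant gene of kappa light chains, did not differ beyond counting error at this gate. It gave 2825 UMIs, 1944 CPM (1873–2017), in the B cells labeled KPC-shV and 10238 UMIs, 1938 CPM (1901–1976), in those labeled KPC-shZEB1, a ratio of 0.997 (0.956–1.04). That depended on the cells taken, since the ratio was 0.733 (0.705–0.763) with a gate of 2 UMIs and 1.08 (1.04–1.13) with no upper limit on UMIs per cell. The median B cell held 9 UMIs in each library. The number of Ighm UMIs per Igkc UMI fell from 0.594 (0.559–0.631) to 0.381 (0.368–0.396), a ratio of 0.642 (0.598–0.689). Unlike the CPM values, this ratio does not depend on the total UMIs of the class, and it stayed between 0.629 and 0.656 under the 7 other filters and gates tried.

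**Figure D2:**
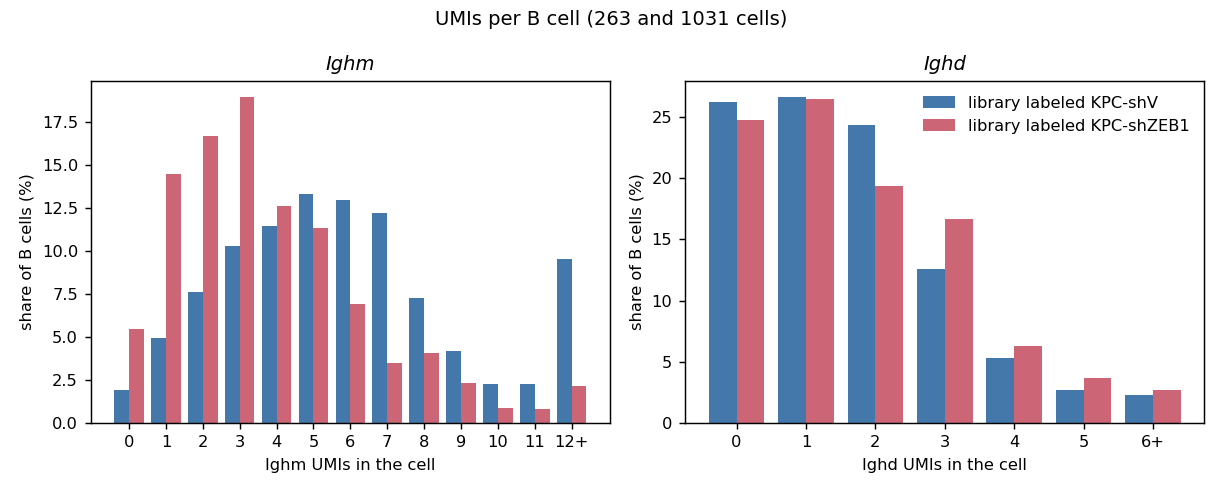
Percent of B cells (vertical axis) with each number of Ighm (left) or Ighd (right) UMIs (horizontal axis), for the 263 and 1031 B cells of the libraries labeled KPC-shV (blue) and KPC-shZEB1 (red). The Ighm bars of the library labeled KPC-shZEB1 lie toward fewer UMIs, with a median of 3 against 6, whereas the median of Ighd was 1 in both.

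Because Ighm was lower and Ighd slightly higher, the make-up of heavy chain RNA in B cells differed. Ighd supplied 20.2% (18.5–22.0) of heavy chain constant UMIs in the B cells labeled KPC-shV and 31.5% (30.3–32.7) in those labeled KPC-shZEB1, a ratio of 1.55 (1.40–1.73). Ighm supplied 79.0% (77.2–80.7) and 67.5% (66.2–68.7). The same direction held in cells of the B-like cluster that fell below the gate, where Ighd supplied 21.9% and 38.8%.

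Cell by cell, 73.0% and 71.7% of B cells held UMIs of both Ighm and Ighd. Ighm alone was found in 25.1% and 22.9%, and Ighd alone in 0.760% and 3.59%. Ighd UMIs outnumbered Ighm UMIs in 16 B cells labeled KPC-shV, 6.08% (3.52–9.69), and in 195 labeled KPC-shZEB1, 18.9% (16.6–21.4), a ratio of 3.11 (1.87–5.55). With every cell thinned to 1000 UMIs, the shares were 9.89% (6.56–14.1) and 15.7% (13.5–18.1), closer together and with overlapping intervals.

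**Figure D3:**
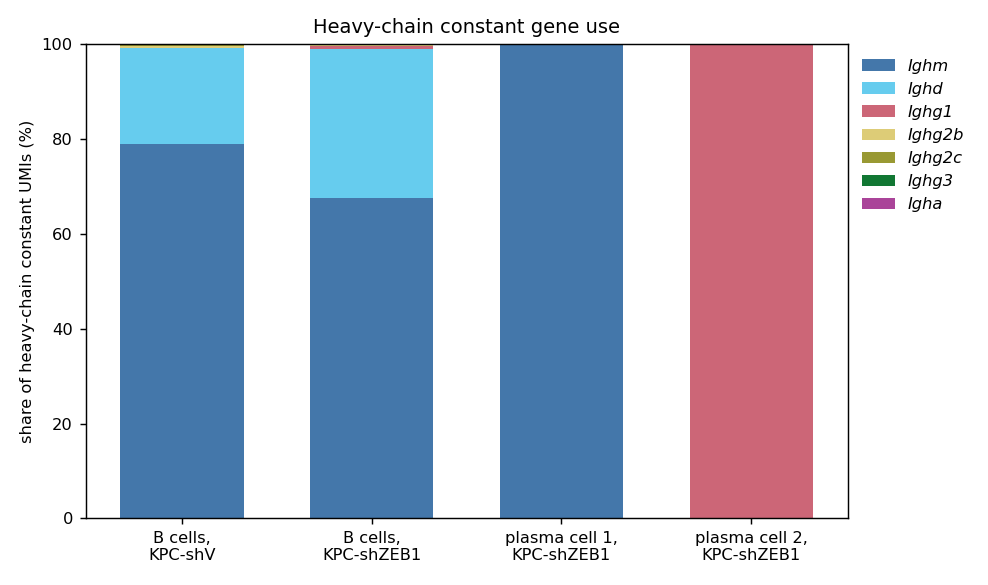
Share of heavy chain constant UMIs, in percent, supplied by each constant gene in the B cells of each library and in each of the 2 plasma cells. In B cells Ighm and Ighd made up nearly all of it, with Ighd at 20.2% under the label KPC-shV and 31.5% under the label KPC-shZEB1, whereas the plasma cells used Ighm and Ighg1.

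Markers of other cell classes also differed inside the B cell gate. The 8 monocyte-macrophage markers, all detected in B cells of both libraries, summed to 994 CPM in B cells labeled KPC-shV and to 3679 CPM in those labeled KPC-shZEB1, and the granulocyte markers to 1346 and 649 CPM. The acinar markers summed to 45.4 and 337 CPM, the NK markers to 7.57 and 22.9 CPM, the fibroblast markers to 2490.3 and 1773 CPM, and the erythroid markers to 15.8 and 2.08 CPM. The 8 B cell markers, 3 of which formed the gate, summed to 6160 and 6072 CPM, a ratio of 0.986 (0.963–1.01). With the level in granulocyte-like cells of the same library subtracted, the ratio in B cells was 0.621 for Ighm and 0.977 for Igkc, and that of the Ighd share was 1.59. The part of cells that share a droplet was not tested.

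Switched heavy chains were rare in B cells of both libraries. Ighg1, an IgG constant gene used in T cell-dependent responses, was at 0 UMIs in the 263 B cells labeled KPC-shV, which allows up to 2.06 CPM. It gave 35 UMIs in 31 of the 1031 B cells labeled KPC-shZEB1, 6.63 CPM and 3.01% of cells. Granulocyte-like cells of that library held it at 7.24 CPM and in 2.22% of cells, at the median depths given above, so the level in B cells was at background. Ighg2b gave 7 and 12 UMIs, Ighg2c 6 and 2, Ighg3 1 and 2, and Igha, the constant gene of IgA, 3 and 12. Igha stood at 2.06 and 2.27 CPM in B cells and at 0 and 2.09 CPM in granulocyte-like cells. Jchain gave 3 and 6 UMIs in B cells, where the 3 UMIs labeled KPC-shV all lay in 1 cell that also held 2 Ighg2c and 36 Igkc UMIs.

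B cells with at least 3 heavy chain UMIs were called switched where the IgG, IgE and IgA genes together held more than 50% of them. Such a call could be made in 250 B cells labeled KPC-shV and 871 labeled KPC-shZEB1. Switched cells were 2 of the 250, 0.8% (0.0970–2.86), and in 3 of the 871, 0.344% (0.0711–1.00). Both counts are at or under the floor of 3, so no ratio is given. Of the former, 1 cell held 3 Ighg2c UMIs, and the other held 1 UMI each of Ighm, Ighg2c and Ighe and lay in a tumor-like cluster. Of the latter, 1 cell held 3 Ighg1 and 2 Igha UMIs, 1 held 3 Ighg2b UMIs, and 1 held 2 Ighg2b UMIs beside 1 of Ighm.

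Light chain use rested mainly on Igkc. The lambda genes led in 19 of 255 B cells with a light chain call labeled KPC-shV, 7.45% (4.55–11.4), and in 58 of 987 labeled KPC-shZEB1, 5.88% (4.49–7.53), a ratio of 0.789 (0.463–1.40). Iglc1 differed by less than counting error between the libraries, at 99.8 and 108 CPM, a ratio of 1.09 (0.903–1.31). Iglc2 stood at 171 and 117 CPM, a ratio of 0.682 (0.588–0.793), and Iglc3, nearly identical to it in sequence, at 155 and 87.8 CPM, a ratio of 0.567 (0.483–0.668).

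None of the 11451 cells labeled KPC-shV passed the plasma cell gate, 0% (0–0.0322). In the library labeled KPC-shZEB1, 2 of 12147 cells passed it, 0.0165% (0.00199–0.0595). Those counts do not separate the libraries. Outside these cells the Jchain level never came near the gate. The highest value in any other kept cell was 3 UMIs in the library labeled KPC-shV and 2 in the library labeled KPC-shZEB1.

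The first plasma cell was an IgM kappa cell. It held 3319 Ighm, 4863 Igkc and 530 Jchain UMIs of 20245 in all, with 0 of Ighd, and immunoglobulin genes made up 43.5% of its UMIs. Its leading variable segments were Ighv1-80, with 27 UMIs, and Igkv4-55, with 22. All 12 plasma cell genes were detected, among them Xbp1 at 17 UMIs, the transcription factor of the secretory program, and Mzb1 at 20, a chaperone of antibody assembly.

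The second was an IgG1 lambda cell of 30679 UMIs. It held 2611 Ighg1 and 8757 Iglc1 UMIs against 1 of Igkc and 2 of Ighm, and immunoglobulin genes made up 39.3% of its UMIs. Its leading variable segments were Ighv1-9, with 42 UMIs, and Iglv1, with 253. Jchain, which attaches to IgM and IgA, gave 212 UMIs in this IgG cell. Of the 12 plasma cell genes, 11 were detected, among them Xbp1 at 31 UMIs and Mzb1 at 27. Tnfrsf17, a survival receptor of plasma cells, was at 0.

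Pax5 and Fcmr, genes of B cells before that stage, were at 0 in both cells. Both had a doublet score of 0.198, just under the limit of 0.2, and with a limit of 0.15 neither would be kept. The monocyte-macrophage markers summed to 41 UMIs in the first and 267 in the second, of which 223 were Ly6c2. The part of doublets in these cells was not tested further.

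Because so few cells held so much immunoglobulin RNA, they set several totals of their library. They supplied 78.5% of the Ighg1, 84.8% of the Jchain and 29.7% of the Ighm UMIs in its kept cells. The Jchain share, and the change in the Jchain ratio below, follow from a gate that selects cells on Jchain. Over all kept cells, Jchain stood at 0.0980 CPM in the library labeled KPC-shV and at 7.30 CPM in the library labeled KPC-shZEB1, a ratio of 74.5 that fell to 11.3 (5.97–24.2) without the 2 plasma cells. For Ighm the values were 30.8 and 93.2 CPM, a ratio of 3.03 with and 2.13 without them. Igkc stood at 36.9 and 175.7 CPM, a ratio of 4.76 with and 3.66 without them. Ighd, absent from both plasma cells, stood at 5.68 and 22.9 CPM, a ratio of 4.03.

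Igha was spread thinly rather than held by a few cells. It gave 16 UMIs, 0.157 CPM, in the library labeled KPC-shV and 163 UMIs, 1.36 CPM, in the library labeled KPC-shZEB1, a ratio of 8.67 (5.18–15.5). The 163 UMIs lay in 155 cells with at most 3 in any of them, and no kept cell labeled KPC-shV held more than 2. Barcodes left out by the filters held at most 6 under the label KPC-shV, where they carried 15 of all 31 Igha UMIs, and at most 2 under the label KPC-shZEB1.

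Ighg1 was also found outside the plasma cells in 1 library only, apart from 2 UMIs in 1 left-out barcode labeled KPC-shV. Without the plasma cells, the library labeled KPC-shZEB1 still held 714 Ighg1 UMIs, 5.96 CPM. The library labeled KPC-shV held 0 in its kept cells. Against a floor of 3 UMIs over those kept cells, the former level was 203-fold higher. In the 8 other named classes with at least 50 cells, Ighg1 ranged from 4.40 to 9.84 CPM under the label KPC-shZEB1 and was at 0 in all 8 under the label KPC-shV.

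Iglc1, the light chain of the IgG1 plasma cell, was found beside Ighg1 in the cell classes of the library labeled KPC-shZEB1. It gave 3.35 UMIs per Ighg1 UMI in that plasma cell (3.21–3.51) and 2.93 (2.68–3.20) over all cells outside B cells, the B-like cluster and plasma cells, an interval just below that of the plasma cell. The ratio was 3.11 (2.47–3.96) in granulocyte-like cells, 2.88 (2.46–3.37) in monocyte-macrophage-like cells and 2.77 (2.32–3.32) in tumor-like cells, whose intervals overlap that of the plasma cell. Over the 8 named classes it ranged from 1.47 (0.794–2.79) in endothelial-like cells to 4.21 (3.05–5.92) in fibroblast-like cells. In B cells it was 16.3 (11.6–23.7), above the interval of each of these classes. Iglv1, the variable segment of that plasma cell, gave 26.6 UMIs per 1000 Iglc1 UMIs (19.8–35.0) in the cells outside B cells, the B-like cluster and plasma cells and 30.4 (26.8–34.3) in the plasma cells. Ighv1-9, its heavy chain segment, gave 0 UMIs against 669 Ighg1 UMIs in the former cells, at most 5.53 per 1000. In the plasma cells it gave 16.1 per 1000 (11.6–21.8), an interval above that limit. B cells of that library held 5 Ighv1-9 UMIs in 4 cells, beside 35 Ighg1 UMIs. Barcodes of that library left out by the filters went the other way. They held 6 Ighv1-9 UMIs in 6 barcodes beside 137 Ighg1 UMIs, 43.8 per 1000 (15.8–97.8). The source of the difference between Ighv1-9 and Iglv1 was not tested.

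**Figure D4:**
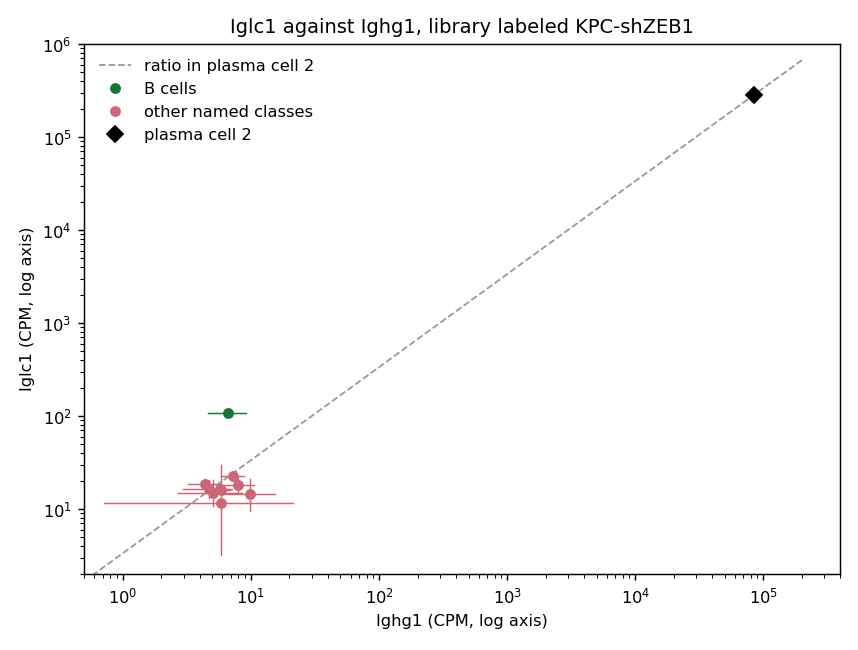
Iglc1 level (vertical) against Ighg1 level (horizontal), both in CPM on log axes, by cell class in the library labeled KPC-shZEB1, with 95% counting intervals as bars and the ratio of the IgG1 plasma cell, 3.35, as a dashed line. The other named classes lie on either side of that line, from 1.47 Iglc1 UMIs per Ighg1 UMI in endothelial-like to 4.21 in fibroblast-like cells, whereas B cells lie above it at 16.3.

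The Igkc level in the 8 other classes ranged from 4.42 to 18.2 CPM under the label KPC-shV and from 32.9 to 45.0 CPM under the label KPC-shZEB1. Jchain was at 0 in 4 of the 8 classes and at most at 0.131 CPM in the former, and between 0.656 and 1.55 CPM in the latter. Igha ranged from 0 to 1.08 CPM and from 0.518 to 5.41 CPM. Ighd ranged from 0.422 to 5.38 CPM and from 3.28 to 9.27 CPM. Each of these genes was thus seen at a low level in cells that should lack it, and at a higher one in the library labeled KPC-shZEB1.

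Ighm in the same 8 classes ranged from 2.25 CPM in endothelial-like cells to 86.1 CPM in NK-like cells of the library labeled KPC-shV, and from 14.0 to 67.6 CPM, again in NK-like cells, in the library labeled KPC-shZEB1. The number of Ighm UMIs per Igkc UMI differed between classes of a library. Under the label KPC-shV it was 0.594 in B cells, 3.94 (3.24–4.84) in monocyte-macrophage-like cells, 6.15 in NK-like cells and 4.87 in dendritic-like cells, against 0.316 in endothelial-like and 0.702 in fibroblast-like cells. Under the label KPC-shZEB1 it was 0.381 in B cells, 0.899 (0.830–0.973) in monocyte-macrophage-like cells, 1.59 in NK-like cells and 1.36 in dendritic-like cells, against 0.391 in endothelial-like and 0.481 in fibroblast-like cells. NK-like, dendritic-like and monocyte-macrophage-like cells stood above B cells in both libraries. Ighd stood lower against Ighm there than in B cells. Monocyte-macrophage-like cells held 0.0201 and 0.121 Ighd UMIs per Ighm UMI against 0.256 and 0.466 in B cells.

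**Figure D5:**
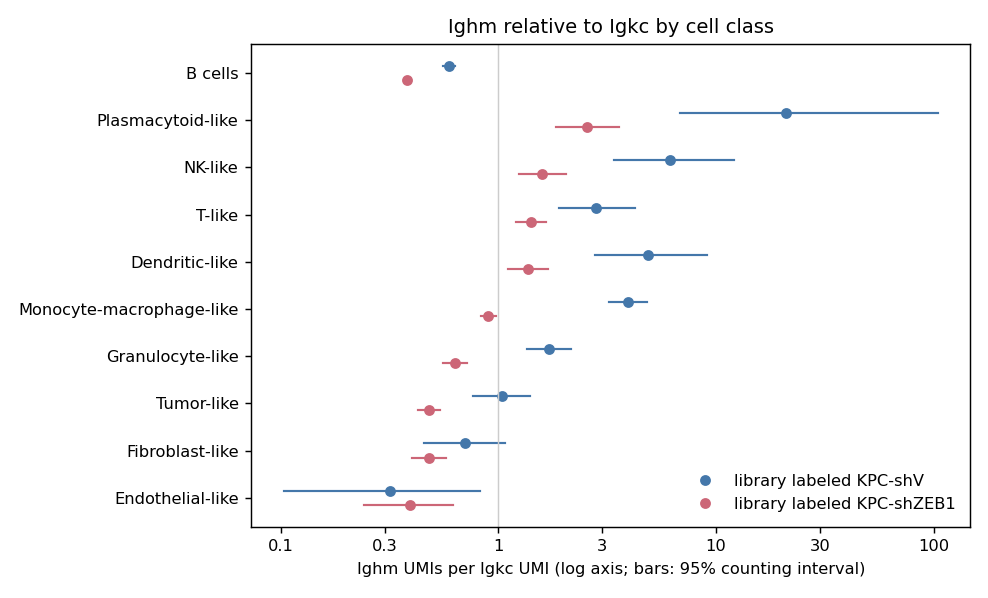
Ighm UMIs per Igkc UMI (log axis) by cell class, in blue for the library labeled KPC-shV and in red for the library labeled KPC-shZEB1, with 95% counting intervals as bars. NK-like, T-like, dendritic-like and monocyte-macrophage-like cells lie to the right of B cells in both libraries, and plasmacytoid-like cells lie farthest, at 21 under the label KPC-shV and 2.56 under the label KPC-shZEB1.

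Outside B cells, the B-like cluster and plasma cells, the highest Ighm level was in plasmacytoid-like cells, a cluster of 15 and 40 cells that expressed Siglech and Ccr9, genes of plasmacytoid dendritic cells. Ighm gave 63 UMIs there, 471 CPM (362–602), in the library labeled KPC-shV and 133 UMIs, 390 CPM (326–462), in the library labeled KPC-shZEB1. It was found in 13 of 15 and 38 of 40 of these cells, whose median depths of 9154 and 8612.5 UMIs were higher than those of the granulocyte-like cells above. Ighd gave 0 and 2 UMIs, Igkc 3 and 52, and Jchain 0 and 0. Igkc was thus at 22.4 and 152 CPM there, each above the 8 other classes of its library. The former rests on 3 UMIs (4.62–65.5 CPM), and 15 of the 52 UMIs behind the latter lay in 1 cell.

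Of the lists of B cell genes compared between the libraries, few members differed by a log2 ratio of at least 1 in size with 1 CPM added, over genes with at least 30 UMIs. Over all 11075 genes that reached 30 UMIs in B cells, 506 were higher by this measure in the library labeled KPC-shZEB1, 4.57%, and 160 were lower, 1.44%, with a median log2 ratio of 0.03. Of the 9 immunoglobulin genes followed here, 4 reached 30 UMIs, 1 was higher and 0 were lower, with a median of 0.11. The higher one was Ighg1, with a log2 ratio of 2.93, which depends on the added CPM because its count was 0 in 1 library, and its level was at background as described above.

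Genes that act before or during class switching gave few values past that size. Of the 10 class switching and germinal center genes, 5 reached 30 UMIs and 1 was higher, Ung, a uracil glycosylase, with 2 and 29 UMIs and a log2 ratio of 1.45, where the list's median was 0.00060. Bcl6, the germinal center regulator, stood at 123 and 111 CPM. All 7 naive and follicular genes reached 30 UMIs, and 0 were higher and 0 lower, with a median log2 ratio of −0.18. Of the 8 memory and B-1 genes, 7 reached 30 UMIs and 1 was lower, Bhlhe41, a transcription factor of B-1 cells, at 17.2 and 5.49 CPM, a log2 ratio of −1.49, and the list's median was 0.15.

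The 4 lambda and other constant genes (Iglc1, Iglc2, Iglc3 and Ighe) had 3 tested, 0 higher and 0 lower, with a median log2 ratio of −0.55.

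No plasma cell gene differed by that size in B cells. Of 12, 10 reached 30 UMIs, and 0 were higher and 0 lower, with a median log2 ratio of −0.06. Mzb1 was among them at 152 and 100.3 CPM, a ratio of 0.660.

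The receptors that bind antibody held more values past that size. Of the 9, 8 reached 30 UMIs, 3 were higher and 1 was lower, with a median log2 ratio of 0.56. Fcgr1 stood at 6.19 and 24.4 CPM, Fcgr3 at 34.4 and 77.4 CPM and Fcgr4 at 13.8 and 39.6 CPM, all 3 of them activating receptors of IgG on myeloid cells. In the same cells the 8 monocyte-macrophage markers differed by a ratio of 3.70 (3.51–3.91). In granulocyte-like cells these markers differed by a ratio of 2.73 (2.68–2.77). Their part in the receptor values was not tested. Pigr, which carries IgA and IgM polymers across epithelia, stood at 21.3 and 6.25 CPM. The receptors known from B cells themselves differed less. Fcmr, the IgM receptor, stood at 214 and 230 CPM, a ratio of 1.08, and Fcgr2b, the inhibitory IgG receptor, differed by a ratio of 1.26.

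Across 29 sums of cells by class and library, the genes whose level followed each member most closely were named by Pearson's correlation of log2 CPM with 1 added, as a description over points that share libraries and depth. Ighd went with Pax5 (0.961) and Fcmr (0.956), both genes of B cells. Igkc went with Iglc2 (0.934), Pou2af1 (0.924), a coactivator of immunoglobulin transcription, and Iglc1 (0.903). Ighm went with Iglc2 (0.917) and Ero1lb (0.872). Ighg1 went with Iglv1 (0.914) and Iglc1 (0.884), and Jchain with Iglv1 (0.987), the light chain variable segment and constant gene of the IgG1 plasma cell described above. The 2 plasma cells, gated on Jchain, formed 1 of the 29 sums. Jchain stood there at 14571 CPM and Ighg1 at 51272 CPM, far above every other class. Correlations without that sum were not computed, so these values do not describe a pattern across the other classes.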

How the data were processed

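Droplet-based 3′ single-cell libraries (10x Genomics) were made from 1 tumor per group. The authors deposited filtered matrices of raw UMI counts per gene and barcode, made per the labels and processing notes with Cell Ranger 7.0.1 on mm10. Whether intronic reads were counted is not given in the sources used here. The matrices held 12594 and 13271 barcodes and 130941086 and 143461224 UMIs (KPC-shV and KPC-shZEB1).

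Kept cells had 500 or more genes, a total of 1000 to 60000 UMIs and no more than 15% of them mitochondrial. Doublets, 262 and 300 of them, were removed with Scrublet in scanpy 1.11.5 at a score of 0.2. The kept cells held 102039660 and 119878880 UMIs. Cells were clustered (3000 variable genes, 30 components, 20 neighbors, leidenalg 0.10.2 at resolution 1, 27 clusters) with 393 immunoglobulin genes left out, and clusters were named "-like" from marker lists. Classes took B cells and plasma cells first by their gates, then the clusters. UMIs were summed per class and library. CPM is UMIs of the gene over 1000000 UMIs of the class. Intervals at 95% were Poisson for a level, Clopper-Pearson for a share and conditional exact for a ratio, except that of the ratio between libraries of Ighm UMIs per Igkc UMI, which used the normal approximation on the log scale. The floor was 3 counts. The scripts were tested on simulated data (numpy 2.4.6, scipy 1.17.1, pandas 2.3.3, python 3.11.15, and matplotlib 3.10.9 for the plots).

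All 9 members were described by class and library, together with lists of lambda, naive, switching, memory, plasma cell and receptor genes, and for each member the 3 other genes with the most similar pattern were found. The members and lists were chosen with earlier results of these data known. With 1 library per group, no p-value was computed. Sequences came from GENCODE transcripts on GRCm38, and protein sequences were not used here. Values of some listed genes are not reported here.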

Additional observations from a re-analysis of the deposited data

Results flagged for a closer look

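One barcode of the library labeled KPC-shZEB1 that did not pass the filters held 169 Ighg2c UMIs, in data that no comparison above uses, whereas no barcode left out of the library labeled KPC-shV held any. It also held 375 Igkc and 6 Jchain UMIs among 1183 UMIs of 399 genes, and immunoglobulin genes made up 48.5% of its UMIs. Its leading variable segments were Ighv1-19, with 10 UMIs, and Igkv5-43, with 11. Mzb1 gave 2 UMIs and Ssr4 4. It was left out for its number of genes and for its doublet score of 0.328, and no other barcode of that library held more than 1 Ighg2c UMI.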

How the results depend on the processing

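Of 84 values under other settings, 68 stayed within the counting interval of the main value, or for plasma cell counts close to the main count. A further 16 moved beyond that and 0 reversed. Only ratios whose main interval excluded 1 could be called reversed, which leaves out the Igkc ratio in B cells, the switched shares and the plasma cell counts. The Ighd share ratio in B cells stayed between 1.46 and 1.67. The Ighm ratio in B cells was 0.695 with no upper limit on UMIs, 0.680 without the 5 cells with most UMIs and 0.478 with a B cell gate of 2 UMIs, and the Igkc ratio was 1.08 with no upper limit and 0.733 with that gate, so its lack of difference depends on the gate. The B cell share ratio was 2.84 with a gate of 8 UMIs and 2.30 among cells other than granulocyte-like cells. Plasma cells labeled KPC-shZEB1 numbered 0 with the doublet limit at 0.15, a setting chosen after seeing the data, and 4 with a gate that used no immunoglobulin gene, whose 2 extra cells held no Jchain and lay in tumor-like and dendritic-like clusters. The switched share was 0 in the library labeled KPC-shZEB1 with the gate of 8 UMIs, 0 in the library labeled KPC-shV when calls needed 5 heavy chain UMIs, and 0 in both after thinning. The settings without the plasma cells and for Ighm per Igkc were also chosen after seeing the data. Ratios of plasma cell and switched shares are not given, as each library had 3 or fewer such cells. The causes were not tested. No paired analysis was possible because each group had 1 library.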
